A study of Mus musculus with 8 samples.

Results

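Neutrophils with few or no transcripts of the chemokine genes Ccl3 and Ccl4 were examined in mouse colon tumours. The wells were chosen by their transcript counts among 3072 wells of 8 SORT-seq plates, of which 2051 held at least 500 transcripts without spike-ins and mitochondrial genes. SORT-seq places 1 sorted cell in each well and counts the 3′ ends of its polyadenylated RNA with unique molecular identifiers. A well was taken as a neutrophil when S100a8, S100a9, Csf3r, Cxcr2, Il1r2 and G0s2 together reached 5 transcripts and 40 per 10000. Wells with 5 or more transcripts of C1qa, C1qb and C1qc, with 2 or more of Cd79a and Cd3e, with 2 or more of Epcam, or with 50 or more per 10000 of Col1a1, Col1a2 and Col3a1 were left out. Of the 199 neutrophil wells so obtained, 124 had under 20 transcripts of Ccl3 and Ccl4 per 10000 and are called Ccl3/Ccl4-low here, and the other 75 are called Ccl3/Ccl4-high. The values of these rule genes were used for the choice and are given as a description only. No transcript of either chemokine was counted in 91 of the 124 low wells. The 3 low wells nearest the limit had 19.8, 19.7 and 18.8 per 10000, and the 3 nearest high wells had 20.1, 20.9 and 22.1, which are differences of a few transcripts.

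The plates came from 8 mice, 4 FibCtrl and 4 FibΔZeb1, and each plate held cells of 1 mouse. FibΔZeb1 mice carried the transgene that the labels call Col1a1Cre-ERT2 and the study's methods describe as Col1a2-CreERT2, through which Zeb1 was deleted in fibroblasts, and FibCtrl mice lacked it. All received a tamoxifen diet, and all bore colon tumours grown from transplanted tumour organoids. Per the study's methods the mice were littermates of both sexes matched for age. The Cre is driven by a collagen promoter, so the deletion was aimed at fibroblasts and not at the neutrophils themselves. Zeb1, the targeted gene, was at 0 to 86.6 CPM (counts per 1000000 transcripts) in the collagen-rich wells of FibCtrl mice and at 21.1 to 44.2 in those of FibΔZeb1 mice, so these ranges overlapped. FibCtrl replicate 2 was at 0 with only 7 such wells. The study reported the deletion in the colon from DNA and from protein, which these RNA counts do not measure. The low wells held 7 Zeb1 transcripts in FibCtrl and 4 in FibΔZeb1. The flow cell of each plate was inferred from a code in the names of the deposited data. By that code, flow cell 1 held replicates 1 and 2 of both genotypes, and flow cell 2 held replicates 3 and 4.

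Neutrophils are short-lived granulocytes that fill their granules while still in the bone marrow, and only then leave for the blood. Precursors transcribe granule genes such as Camp, Ltf, Ngp and Lcn2. Mature circulating cells are rich in S100a8 and S100a9, the subunits of calprotectin, and in Retnlg. Inside a tumour, neutrophils can transcribe inflammatory genes, among them Il1b and the chemokine genes Ccl3, Ccl4 and Cxcl2. Mmp9 encodes a gelatinase stored in late granules, and Il1r2 a decoy receptor that binds interleukin 1 without signalling.

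Neutrophil genes other than Cxcr2 were common in 103 of the 124 low wells and rare in the other 21. In the 103 wells, S100a9 was detected in 87.4%, Csf3r (the receptor for granulocyte colony-stimulating factor) in 86.4%, Il1r2 in 83.5%, S100a8 in 80.6%, Mmp9 in 65% and Retnlg in 37.9%. S100a9, Csf3r, Il1r2 and S100a8 also chose the wells, so only Mmp9 and Retnlg are independent of the rule. Their pooled levels were 26385 CPM for S100a8 and 21618 for S100a9, against 22.6 and 23.4 in 544 epithelial wells that should lack these genes. S100a8 was nevertheless seen in 27.6% of those epithelial wells, whose median depth was 21309 transcripts against 1833 in the 103 wells, so shares of wells with a transcript carry some background. Retnlg was found in 8.82%, Mmp9 in 5.7% and Cxcr2 in 56.8% of the epithelial wells. Of the 103 wells, 11 had neither S100a8 nor S100a9 transcripts, so the neutrophil label is less sure for them.

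In the other 21 low wells, 15% to 22.5% of all transcripts came from Kcnq1ot1, a long non-coding RNA of an imprinted locus. The next highest low well had 6.31%, and the highest of the 75 high wells had 6.4%. These Kcnq1ot1-rich wells reached the neutrophil sum only through Cxcr2, the receptor gene for Cxcl1 and Cxcl2. Without Cxcr2, 0 of the 21 reached it, against 102 of the other 103. Cxcr2 was detected in all 21, at 48.9 per 10000 pooled, while S100a8 was detected in 4, S100a9 in 2, Retnlg in 1, and Il1r2 and Mmp9 in 0. Ptprc, the gene of the leukocyte marker CD45, was detected in 2 of 21 wells against 78 of 103. Gm17821, A630089N07Rik, Vmn2r55 and Grk4 were high in the same wells, at 1281, 739, 434 and 383 per 10000 pooled against 52.1, 29.8, 15.7 and 13.9. The median depth was 2476 transcripts in the 21 wells and 1833 in the 103, with a median mitochondrial share of 10.7% and 7.71%. Outside the neutrophil wells another 123 wells were Kcnq1ot1-rich, and 109 of them also had Cxcr2 transcripts. The plates included empty control wells, and the sort gate of single wells was not used. What these wells held was not tested. They lay on FibCtrl replicate 3 (9 wells), FibCtrl replicate 2 (7), FibΔZeb1 replicate 4 (3) and FibΔZeb1 replicate 2 (2), so results are given with and without them.

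**Figure D1:**
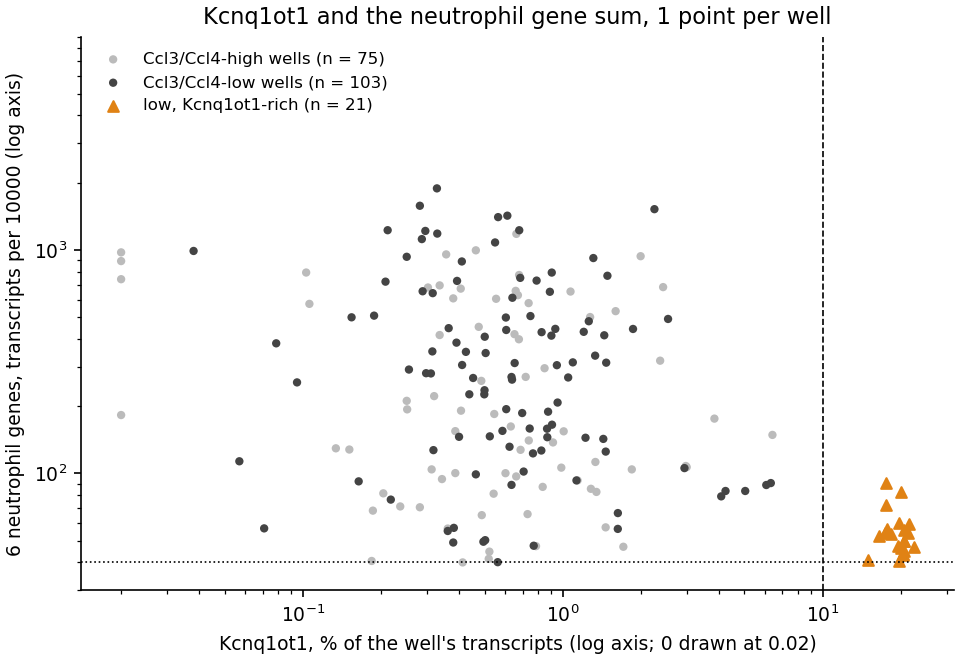
Share of Kcnq1ot1 among a well's transcripts (x axis, percent, log scale, with 0 drawn at 0.02) and the sum of the 6 neutrophil genes per 10000 transcripts (y axis, log scale), with 1 point per neutrophil well. The dotted line is the neutrophil limit of 40 per 10000 and the dashed line marks 10%. The 21 Kcnq1ot1-rich low wells (triangles) sit between 15% and 22.5% and between 40.4 and 91.1 per 10000, to the right of the other 103 low and 75 high wells.

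Another 3 low wells, all from FibCtrl mice, stood apart by the stefin gene Stfa3, a cysteine protease inhibitor that no other low well held. The well on FibCtrl replicate 3 had 10396 transcripts, the most of any low well, with 347 of Camp, 207 of Ltf, 177 of Ngp, 259 of Lcn2 and 108 of Stfa3, but only 1 of Il1b. Both wells on FibCtrl replicate 4, with 5791 and 8166 transcripts, had 108 and 133 of Stfa2, 25 and 111 of Stfa3, and 47 and 372 of Retnlg. The last also held 1213 transcripts of S100a8 against 24 of S100a9. No Mki67 or Top2a transcript, which mark dividing cells, was counted in the 3 wells. Together they supplied 98.9% of the Camp, 98.3% of the Ngp, 95.8% of the Stfa2, 71.4% of the Lcn2, 49.1% of the S100a8 and 44.4% of the Retnlg transcripts of all low wells. Sums that include them are therefore given also without them.

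Marker genes of fibroblasts, macrophages and epithelial cells were present in the low wells, while those of other classes were low. The rule had already left out wells by C1q, Cd3e, Cd79a, Epcam and collagen transcripts. These genes are in the macrophage, T cell, B cell, epithelial and fibroblast lists, so those sums were partly set by the choice. Of the 10 eosinophil, mast cell and basophil markers, Epx, Prg2, Cma1, Mcpt4 and Fcer1a were at 0, and the summed list ranged from 0 to 361 CPM over 6 plates in low wells and from 34.4 to 161 in high wells. Sums of T and NK cell markers were 60.8 to 256 in low and 0 to 97.2 in high wells, of B cell markers 0 to 148 and 0 to 357, and of dendritic cell markers 0 to 144 and 0 to 57.4. Endothelial markers reached 20.3 and 78.8, with Pecam1 and Emcn at 0 in the low wells, and erythroid markers reached 20.3 and 0. Macrophage and monocyte markers, led by Fn1 and Apoe, were at 397 to 1877 in low and 34.4 to 2495 in high wells. Epithelial markers, led by Krt8, were at 343 to 829 and 0 to 1275, and fibroblast markers, led by Col3a1 and Col1a2, at 938 to 4949.7 and 1026 to 6601, so the ranges overlapped for each of these lists. Col3a1 was detected in 76.5% of low and 69% of high wells. Csf1r, of the macrophage list, was detected in 38.4% of low wells without the Kcnq1ot1-rich and in 14.1% of high wells. The part of such RNA in the results was not tested. No neutrophil well had the same values as another.

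The 2 genotypes allow the question whether loss of Zeb1 in fibroblasts went along with a different neutrophil state. The first measure was the share of neutrophil wells that were Ccl3/Ccl4-low. FibCtrl replicate 1 had no neutrophil well among 327 wells of sufficient depth, which allows a share of up to 0.917%. On that plate 4 wells reached the neutrophil sum, and 3 of them were over the collagen limit. On FibCtrl replicate 4, 31 of 52 wells that reached the sum were over the collagen limit, against 0 to 7 wells on the other plates. The low wells numbered 12, 26 and 14 on FibCtrl replicates 2 to 4, and 7, 9, 26 and 30 on FibΔZeb1 replicates 1 to 4.

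Low wells made up 42.9%, 86.7% and 66.7% of the neutrophil wells on FibCtrl replicates 2 to 4, and 53.8%, 47.4%, 55.3% and 73.2% on FibΔZeb1 replicates 1 to 4. The means were 65.4% ± 21.9 (SD, n = 3) and 57.4% ± 11 (SD, n = 4), and the FibΔZeb1 plates lay within the FibCtrl range. The difference was -7.97 percentage points, with a 2-sided exact permutation p = 0.514 over 35 arrangements, of which the smallest possible p is 0.0286. Exact binomial 95% intervals on each plate were wide, for example 24.5% to 62.8% on FibCtrl replicate 2 and 69.3% to 96.2% on FibCtrl replicate 3, and cover counting error only. Without the Kcnq1ot1-rich wells the shares were 23.8%, 81% and 66.7% against 53.8%, 41.2%, 55.3% and 71.1%, a difference of -1.79 points (exact permutation p = 0.943). Without FibCtrl replicate 3 the difference was 2.66 points (exact permutation p = 0.867). Within flow cell 1 it was 7.75 points (1 plate against 2) and within flow cell 2 it was -12.4 points (2 against 2). A difference between genotypes larger than the spread between mice was not detected.

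**Figure D2:**
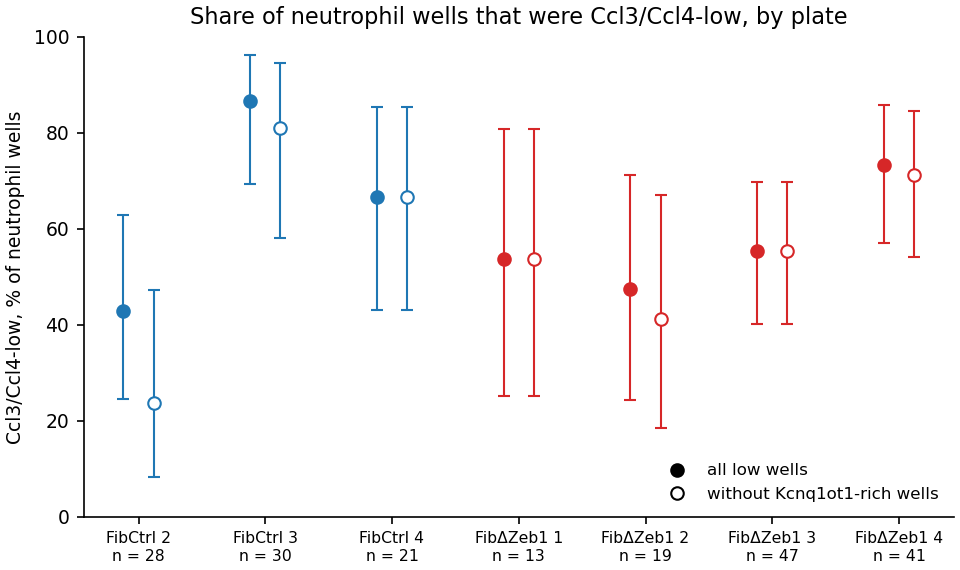
Percent of neutrophil wells that were Ccl3/Ccl4-low on each plate (y axis), with 95% exact binomial intervals as bars and the number of neutrophil wells under each name. Filled points use all low wells and open points leave out the Kcnq1ot1-rich wells. FibCtrl plates (blue) span 42.9% to 86.7% and FibΔZeb1 plates (red) 47.4% to 73.2%.

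Along the span from Retnlg and S100a8 to Mmp9 and Il1r2, the wells formed a gradient at the first end and little order at the other. Each of the 4 genes was set per 10000 transcripts of a well, and the span index was the mean log2(value + 1) of Mmp9 and Il1r2 minus that of Retnlg and S100a8. Over the 103 wells without the Kcnq1ot1-rich, Spearman's rho was 0.60 between Retnlg and S100a8 and 0.86 between S100a8 and S100a9, but 0.04 between Mmp9 and Il1r2. Between the means of the 2 pairs it was -0.14, and -0.09 over the 107 low wells with a transcript of any of the 4 genes. S100a8, S100a9 and Il1r2 also chose the wells, and all values of a well share its depth, so these correlations are descriptions. Retnlg had a median of 0 and Mmp9 of 7.1 per 10000 over the 103 wells, so few transcripts stand behind these values. Whether high levels of one pair went with low levels of the other cannot be read from them.

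Most wells held genes of both ends. Of the 103, 78 had a transcript of Retnlg or S100a8 and a transcript of Mmp9 or Il1r2, 6 had the first pair alone, and 19 had Mmp9 or Il1r2 alone. S100a8 and Il1r2 also chose the wells, so these counts are partly set by the rule. By Retnlg and Mmp9, which the rule did not use, 29 held both, 10 Retnlg alone, 38 Mmp9 alone and 26 neither. The median S100a8 level was 86.5 per 10000 and the highest 1485. Retnlg, which encodes a resistin-like secreted protein, had a median of 0 and a highest value of 456, and 3 wells supplied 50% of its transcripts. Il1r2 was spread more evenly, with a median of 22.8 and 15 wells supplying 50%. Mmp9 had a median of 7.1, with 11 wells supplying 50%.

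The wells of each plate were then divided into 4 bins along the index. From the Retnlg-S100a8 bin (22 wells) to the Mmp9-Il1r2 bin (29 wells), the mean of S100a8 was 383, 154, 107 and 36.1 per 10000, and that of Retnlg 91.9, 12.7, 7.49 and 1.18. Mmp9 was 6.8, 7.89, 7.62 and 22.6, and Il1r2 was 16.2, 23.9, 31.8 and 45.4. These genes define the index, so only the shape is informative, with Mmp9 flat over the first 3 bins. The median depth was 1984, 1958, 1877 and 1465 transcripts in the same order.

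Genes outside the index followed the Retnlg-S100a8 end more than the other. The mean of Lrg1, a secreted leucine-rich glycoprotein, was 21.3, 12.8, 8.16 and 4.07 per 10000 over the bins. Ifitm6, a gene of the interferon-induced transmembrane family, was at 13.1 in the first and 0 in the last bin, and Wfdc17 at 24.4 and 3.69. Lcn2, which encodes a siderophore-binding granule protein, was at 21.8 in the first bin and between 5.39 and 5.49 in the others. The 3 Stfa3 wells were all in the first bin, and without them its mean was 7.05 for Lcn2, 8.76 for Ifitm6, 20.4 for Lrg1, 22.3 for Wfdc17, 250.1 for S100a8 and 77.8 for Retnlg. Fth1, the ferritin heavy chain, was at 95.2 in the first and 59.7 in the last. Csf3r was at 25.7 and 19.9, and Il1b, which encodes interleukin 1 beta, was at 195 and 293. The Cxcl2 mean was 95.3, 75.1, 67.4 and 132, so it was highest at the Mmp9-Il1r2 end but did not follow the index in order. These are means over wells, with no test.

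Among 784 genes ranked by their rank correlation with the index over the 103 wells, S100a9 was nearest the Retnlg-S100a8 end with a rho of -0.79. Gda (guanine deaminase) followed with -0.59, S100a6 with -0.57 and S100a11 with -0.51. Wfdc17, Ccl6 and 1100001G20Rik (Wfdc21) each had -0.49. At the other end the values were weaker. Txnip (an inhibitor of thioredoxin) had 0.42, Laptm5 0.40, and the ribosomal protein genes Rps28, Rps13 and Rps3 had 0.42, 0.38 and 0.38. Laptm5 had a rho of 0.37 with the mean of Mmp9 and Il1r2, and Rps28 only 0.09.

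**Figure D3:**
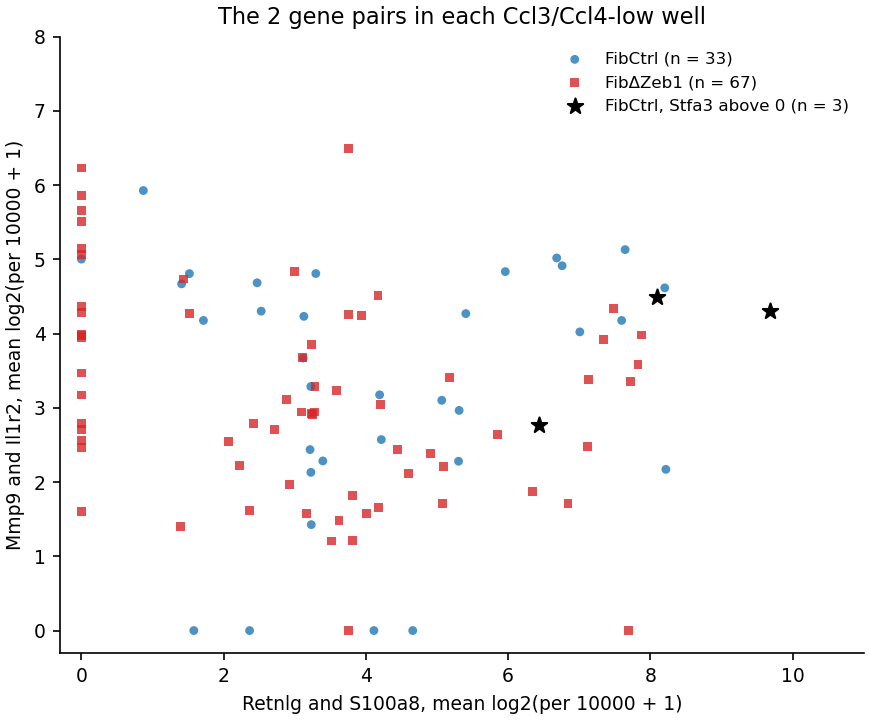
Mean log2(transcripts per 10000 + 1) of Retnlg and S100a8 (x axis) and of Mmp9 and Il1r2 (y axis) in each of the 103 low wells without the Kcnq1ot1-rich. Circles are FibCtrl, squares FibΔZeb1 and stars the 3 Stfa3 wells. The 19 wells at 0 on the x axis hold Mmp9 or Il1r2 alone, and 18 of them are FibΔZeb1.

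The wells with Mmp9 or Il1r2 alone were unevenly spread over mice. They numbered 0, 0 and 1 on FibCtrl replicates 2 to 4, and 1, 2, 4 and 11 on FibΔZeb1 replicates 1 to 4, or 0% to 7.14% and 14.3% to 40.7% of the low wells without the Kcnq1ot1-rich, so the genotypes did not overlap. This split was noticed in the data and was not tested. These wells were shallower, with a median of 1417 transcripts against 2061 in wells with both ends. When every well was thinned to 500 transcripts, the shares without Retnlg or S100a8 were 0%, 5.88% and 28.6% against 14.3%, 28.6%, 23.1% and 48.1%, and the genotypes overlapped. The median S100a9 level in the 19 wells was 0 and that of Csf3r 7.38 per 10000, against 144 and 22.9 in wells with both ends, while Il1b was at 225 against 219. The neutrophil label is thus less sure for these 19 wells.

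The same span was compared between genotypes on sums per plate, with plates of at least 10 low wells. Here the index was the mean log2 CPM of Mmp9 and Il1r2 minus that of Retnlg and S100a8. It was -2.62, -3.35 and -2.71 on FibCtrl replicates 2 to 4, and -1.57 and 1.08 on FibΔZeb1 replicates 3 and 4, so the FibΔZeb1 plates were higher, towards Mmp9 and Il1r2. The means were -2.89 ± 0.40 (SD, n = 3) and -0.25 ± 1.87 (SD, n = 2). The difference was 2.65. It is given with no test, since S100a8 and Il1r2 also chose the wells. With plates of at least 5 low wells, FibΔZeb1 replicates 1 and 2 entered at -2.49 and -2.67, level with the FibCtrl plates, and the difference was 1.48. All flow cell 1 plates then lay between -2.67 and -2.49, and the difference was 2.79 within flow cell 2 (2 plates against 2).

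This difference rested on few wells. Without the Kcnq1ot1-rich and the 3 Stfa3 wells, FibCtrl replicate 4 moved from -2.71 to 1.73, and the difference over 7 plates became -0.23. S100a8 was at 21696, 29143 and 38290 CPM on FibCtrl replicates 2 to 4, and at 16158, 17299, 14249 and 4126 on FibΔZeb1 replicates 1 to 4. The genotypes did not overlap for S100a8 until the Stfa3 wells were left out, when FibCtrl replicate 4 was at 6982. Mmp9 was at 469, 479.6 and 1623 against 639.8, 345, 1462 and 1385, and Il1r2 at 3375, 1688 and 4304 against 2093, 1380.2, 2822 and 2181, so both overlapped. Retnlg was at 133 CPM, or 7 transcripts, on FibΔZeb1 replicate 4, and at 8040.0 on FibCtrl replicate 4. Without the Kcnq1ot1-rich and Stfa3 wells these plates were at 177 and 52.

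Low wells were next compared with the high wells of the same mouse, to show what varied together with Ccl3 and Ccl4. On the 6 plates with at least 5 wells of each class, low wells had less of 6 genes and more of none. The 6 were the neutrophil-attracting chemokine Cxcl2, the itaconate-producing enzyme Irg1 (now Acod1), the interleukin 1 antagonist Il1rn, the alarmin Il1a, the macrophage growth factor Csf1 and the lysosomal protease Ctsb. Counts were summed per plate and class and tested with edgeR's quasi-likelihood test with the plate as a block. The rule genes entered the fit and the Benjamini-Hochberg adjustment and were then left out of all counts. By construction Ccl3 and Ccl4 had the smallest p, which lowers the adjusted p of the other genes in this comparison. Adjusted p without the rule genes were not computed. At a Benjamini-Hochberg adjusted p under 0.05, 0 of 342 genes tested (0%) were higher and 6 (1.75%) lower. Before adjustment 69 were under 0.05. With DESeq2, 15 genes were lower, among them the same 6, and 6 were higher. The classes were cut on chemokine transcripts of the same wells, so this comparison describes those cells and is not independent of the choice. Values below are CPM of a class on a plate.

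Cxcl2 (chromosome 5, 90903871 to 90905938) was at 1409.6 to 20172 in low wells, with a median of 6742 over the 6 plates, and at 21844 to 65359 in high wells, with a median of 26808. The classes did not overlap, and the log2 difference was -2.27 (SE 0.49, edgeR adjusted p = 0.0258). Irg1 (chromosome 14, 103046977 to 103056573) was at 209.7 to 1133 in low and 1149 to 4114 in high wells, again without overlap, a difference of -2.02 (SE 0.35, adjusted p = 0.0109). Il1rn (chromosome 2, 24336853 to 24351494) was at 384 to 1757 in low and 2524 to 6374 in high wells, also without overlap, a difference of -1.91 (SE 0.40, adjusted p = 0.0254).

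The ranges of the other 3 genes overlapped between mice, but each was lower in the low wells of 6 of 6 plates. Il1a (chromosome 2, 129299610 to 129309972) had a median of 449 in low and 1615 in high wells, a difference of -1.78 (SE 0.32, adjusted p = 0.0117). Csf1 (chromosome 3, 107741048 to 107760469) had a median of 279 and 931, a difference of -1.68 (SE 0.36, adjusted p = 0.0254), and was at 0 in the low wells of FibCtrl replicate 2. Ctsb (chromosome 14, 63122462 to 63145923) had a median of 623 and 2376, a difference of -1.43 (SE 0.29, adjusted p = 0.0254). Cxcl2 was detected in 75.5% of low and 97.2% of high wells, Il1rn in 58.2% and 87.3%, and Irg1 in 33.7% and 63.4%.

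Without the Kcnq1ot1-rich wells the low wells reached 24433 for Cxcl2 and 1949 for Irg1, so the ranges of both then overlapped with those of the high wells, and only that of Il1rn, up to 1947, did not. Each of the 6 genes was still lower on 6 of 6 plates. Cxcl2 was then detected in 83.7%, Il1rn in 62.8% and Irg1 in 38.4% of low wells. The same 6 genes passed without the Kcnq1ot1-rich wells, when 323 genes were tested and 6 (1.86%) were called, 0 of them higher. Their differences were then -2.19 for Cxcl2, -1.94 for Irg1, -1.85 for Il1rn, -1.73 for Il1a, -1.66 for Csf1 and -1.56 for Ctsb. Without FibΔZeb1 replicate 3 none of 302 genes passed (smallest edgeR adjusted p = 0.0686, 58 at an unadjusted p under 0.05), although the 6 differences kept their sign, from -2.35 for Cxcl2 to -1.47 for Ctsb. Without the plate as a block 1 gene passed.

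**Figure D4:**
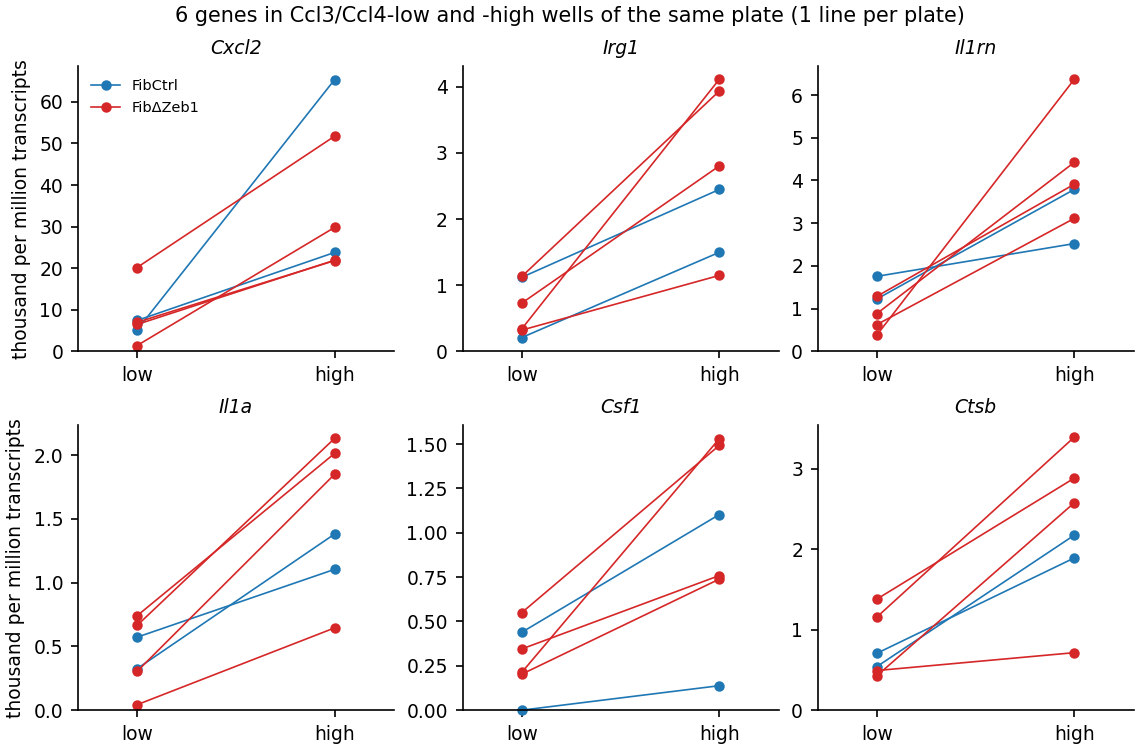
CPM divided by 1000 (y axis, linear from 0) of the 6 called genes in the Ccl3/Ccl4-low and Ccl3/Ccl4-high wells of the same plate. Each line joins the classes of 1 plate, FibCtrl in blue (2 plates) and FibΔZeb1 in red (4 plates). On every plate the value is lower in the low wells, with medians of 6742 and 26808 CPM for Cxcl2.

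Other genes had lower values in low wells and did not pass in edgeR. Tnf had a median of 529 in low and 1767 in high wells, a difference of -1.65 (SE 0.44, adjusted p = 0.0689), and FibΔZeb1 replicate 2 went the other way with 837 and 715. Nlrp3 (the inflammasome sensor) differed by -1.24, Ier3 by -1.15, Cd53 by -1.01 and Tnfaip3, an inhibitor of NF-kB signalling, by -0.95, each with an adjusted p of 0.0689. Cxcl3, a relative of Cxcl2 on the same chromosome, differed by -2.24 (SE 0.90, adjusted p = 0.211). DESeq2 called Tnf, Nlrp3, Ier3, Cd53, Tnfaip3 and Cxcl3, with adjusted p from 0.0142 for Cxcl3 to 0.0464 for Tnfaip3. Il1b, by contrast, had a median of 17682 in low and 20037 in high wells, a difference of -0.14 (SE 0.35, adjusted p = 0.881). It was detected in 88.8% of low wells, in 96.5% of them without the Kcnq1ot1-rich, and in 95.8% of high wells.

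Genes with higher values in low wells did not pass in edgeR. Arpc5, a subunit of the actin-nucleating Arp2/3 complex, differed by 1.42 (SE 0.36) and was higher in 5 of 6 plates. Pygl (liver-type glycogen phosphorylase) differed by 1.33, Ifitm1 by 1.08 and Rac2, the GTPase of the neutrophil oxidase, by 0.95, each with an adjusted p of 0.0689. Lrg1 differed by 1.89 (SE 0.54, adjusted p = 0.0712). Retnlg differed by 2.35 (SE 1.01, adjusted p = 0.226), with 133 to 8040.0 in low wells and 0 to 8434 in high wells. Without the Kcnq1ot1-rich and Stfa3 low wells it differed by 1.47, while 2 of 71 high wells with a Stfa3 transcript stayed in. A130077B15Rik differed by 1.81 with all low wells and by -0.08 without the Kcnq1ot1-rich. DESeq2 called Lrg1 (2.17, adjusted p = 0.008) and Retnlg (2.86, adjusted p = 0.0138), and also Arpc5 (0.025), A130077B15Rik (0.025), Pygl (0.041) and Ifitm1 (0.0472), with adjusted p in parentheses.

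Of the genes used by the rule, S100a8 had a median of 16729 in low and 8176 in high wells, and Csf3r 2206 and 1206. Mmp9, which the rule did not use, had a median of 1012 and 722, a difference of 0.27 (SE 0.25, adjusted p = 0.603), and Il1r2 2502 and 2469. By construction Ccl3 had a median of 204 in low and 10900 in high wells, and Ccl4 66.6 and 3978.

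By gene group, chemokines and cytokines were the list with the most calls. Of its 9 genes tested, 4 were lower (Cxcl2, Il1rn, Il1a and Csf1) and 0 higher, where 1.75% of all genes tested were lower, and the median log2 difference was -1.68 against 0.04 over all genes tested. Of the 16 early response and NF-kB genes tested, 0 passed, with a median of -0.28 and Nfkbia at -0.96 (adjusted p = 0.0875). The 9 circulating neutrophil genes had a median of 0.94, with 8 positive and 0 passing, and the 5 NADPH oxidase genes a median of 0.62, all positive and 0 passing. No gene passed among 12 migration receptors (median -0.02), 11 hypoxia and glycolysis genes (0.08), 7 tumour neutrophil genes (-0.67), 4 interferon-stimulated genes (0.10) or 4 survival genes (-0.09). Of the interleukin 1 receptor and signal list only Il1rn could be tested, and of the precursor granule list only 1 gene (-1.38, not passing). No stefin or cell cycle gene was abundant enough to be tested.

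Promoter sequence of the genes that passed is shown for those that held the letters GGGANNTTCC on either strand, a form of the site that NF-kB proteins bind. In RefSeq promoters of GRCm38.p6, from 250 bases before to 50 after the gene start, 387 of 27025 (1.43%) held a match. Among the 6 genes, 5 had an entry and 2 of these matched, Cxcl2 and Csf1. The windows below are written 5′ to 3′ in the direction of the gene, with the match in capitals. That of Cxcl2 lies at chr5:90903777-90903836 (plus strand) and its match begins 97 bases before the start. There the motif matches on both strands. The window of Csf1 lies at chr3:107760589-107760648 (minus strand), with the match on the opposite strand from 154 bases before the start.
Cxcl2: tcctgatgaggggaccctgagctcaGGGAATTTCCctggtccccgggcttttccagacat
Csf1: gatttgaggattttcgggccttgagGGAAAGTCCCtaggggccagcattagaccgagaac
The promoters of Il1rn, Il1a and Irg1 did not hold these letters in this stretch, nor did those of Ccl3, Tnf, Retnlg, S100a8 and Il1r2. Nfkbia, which was not called, had a match 29 bases before its start. A match is a run of letters and does not show that a protein was bound.

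Genes were then compared between genotypes within the low wells, with FibCtrl replicates 2 to 4 against FibΔZeb1 replicates 3 and 4, whose low wells held 27729 to 68826 transcripts per plate. None of 990 genes was called by edgeR, with 0% higher and 0% lower, and 71 had an unadjusted p under 0.05 (34 higher and 37 lower in FibΔZeb1). Rule genes were not left out of these counts. The smallest adjusted p was 0.664. Values for the genes with the smallest unadjusted p in each direction follow as descriptions. Without the Kcnq1ot1-rich wells and with plates of at least 5 low wells, all 7 plates entered, and 0 of 698 genes (0%) passed, with a smallest adjusted p of 0.0748. With plates of at least 10 such wells, FibCtrl replicate 2 dropped out and 6 of 843 genes were lower in FibΔZeb1 (2 plates against 2), among them Stfa2 (edgeR adjusted p = 0.00362) and BC117090 (adjusted p = 0.0479), both stefins held mostly by the 3 Stfa3 wells.

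Tnf, the gene of tumour necrosis factor, was higher on every FibΔZeb1 plate than on every FibCtrl plate. It was at 72.1, 43.6 and 172 CPM on FibCtrl replicates 2 to 4, and at 640.2, 837, 690.1 and 417 on FibΔZeb1 replicates 1 to 4. The log2 difference was 2.37 (SE 0.55), which was not called (edgeR adjusted p = 0.664). The counts behind these values were 2, 3 and 9 against 15, 17, 34 and 22 transcripts, from 8 of 52 FibCtrl and 24 of 72 FibΔZeb1 low wells. Without the Kcnq1ot1-rich wells Tnf was detected in 8 of 36 (22.2%) and 22 of 67 (32.8%). Over the 7 plates without the Kcnq1ot1-rich wells the difference was 2.45 (SE 0.51, adjusted p = 0.0748), and without the Stfa3 wells as well it was 2.28 (adjusted p = 0.45). In the high wells Tnf overlapped between genotypes, with 172 and 2287 on FibCtrl replicates 2 and 4 against 715 to 2503.

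The AP-1 gene Jun had the same order. It was at 289, 145 and 477 CPM in FibCtrl and 768, 1083, 1014 and 891 in FibΔZeb1, a difference of 1.55 (SE 0.45). Cxcr4, the receptor that retains neutrophils in bone marrow, was at 72.1, 116 and 286 against 469.6, 246, 568 and 588, a difference of 1.70 (SE 0.52), with FibΔZeb1 replicate 2 inside the FibCtrl range. Mif, a cytokine gene, differed by 1.43 and Alkbh5, an RNA demethylase, by 2.22, the latter from 1, 2 and 6 transcripts against 15 and 17 on the plates tested. On FibΔZeb1 replicate 2 Mif was at 148 CPM, under the FibCtrl range of 247 to 515, and Alkbh5 on FibΔZeb1 replicates 1 and 2 was at 42.7 and 98.5, within the FibCtrl range of 29.1 to 114. All 4 had an adjusted p of 0.664 and were not called.

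Col6a2, a collagen VI chain made by fibroblasts, also had higher values in FibΔZeb1. It was at 180.3, 72.6 and 191 CPM in FibCtrl and 1067, 246, 1156 and 512 in FibΔZeb1, a difference of 2.35 (SE 0.51, adjusted p = 0.664). The 5 fibroblast markers tested were all positive, with a median of 0.55 and 0 passing. Among them were Col1a1, Col1a2 and Col3a1, which also chose the wells, so these values are a description. The summed level of the fibroblast list was 938 to 3109 CPM in FibCtrl and 2919 to 3041 in FibΔZeb1 on the plates tested. The part of stromal RNA in the differences between genotypes was not tested.

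Stefin and granule genes had lower values in FibΔZeb1, and the 3 Stfa3 wells of FibCtrl held most of their transcripts. Stfa2l1 was at 975, 1202 and 1091 CPM in FibCtrl against 469, 1035, 385 and 246, a difference of -2.02 (SE 0.46, adjusted p = 0.664). Without the Kcnq1ot1-rich and Stfa3 wells its difference was -0.04. Lcn2 was at 1119.8, 4301 and 1474 against 128, 1084, 385 and 189.5, a difference of -3.35 (SE 0.89, adjusted p = 0.664), and of -1.02 without those wells. Stfa2 was at 108, 1544 and 4625 against 0, 295, 20.3 and 37.9, and BC117090, another stefin, at 108, 1025 and 707 against 0, 295, 20.3 and 56.9. Neither could be tested without those wells. The secreted inhibitor 1100001G20Rik (Wfdc21) differed by -2.29 and by -0.83 without them, neither called. Anxa1, the gene of annexin A1, was at 1047, 2121 and 1571 against 1280.4, 788, 608 and 341, and its difference without those wells was -0.66.

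Of the rule genes, given with no test, S100a8 differed by -1.94 and by -0.51 without the Kcnq1ot1-rich and Stfa3 wells, and Il1r2 by -0.45 and -0.90. Retnlg differed by -2.02 (SE 1.03, edgeR adjusted p = 0.688) and by -1.02 without those wells. Mmp9 differed by 0.66 (SE 0.50, adjusted p = 0.782) and by 0.12 without them. Il1b differed by 0.21 (SE 0.71). The 6 genes that separated low from high wells showed no common direction between genotypes, from -0.51 for Irg1 to 1.15 for Ctsb, with Cxcl2 at 0.07 (SE 0.49).

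**Figure D5:**
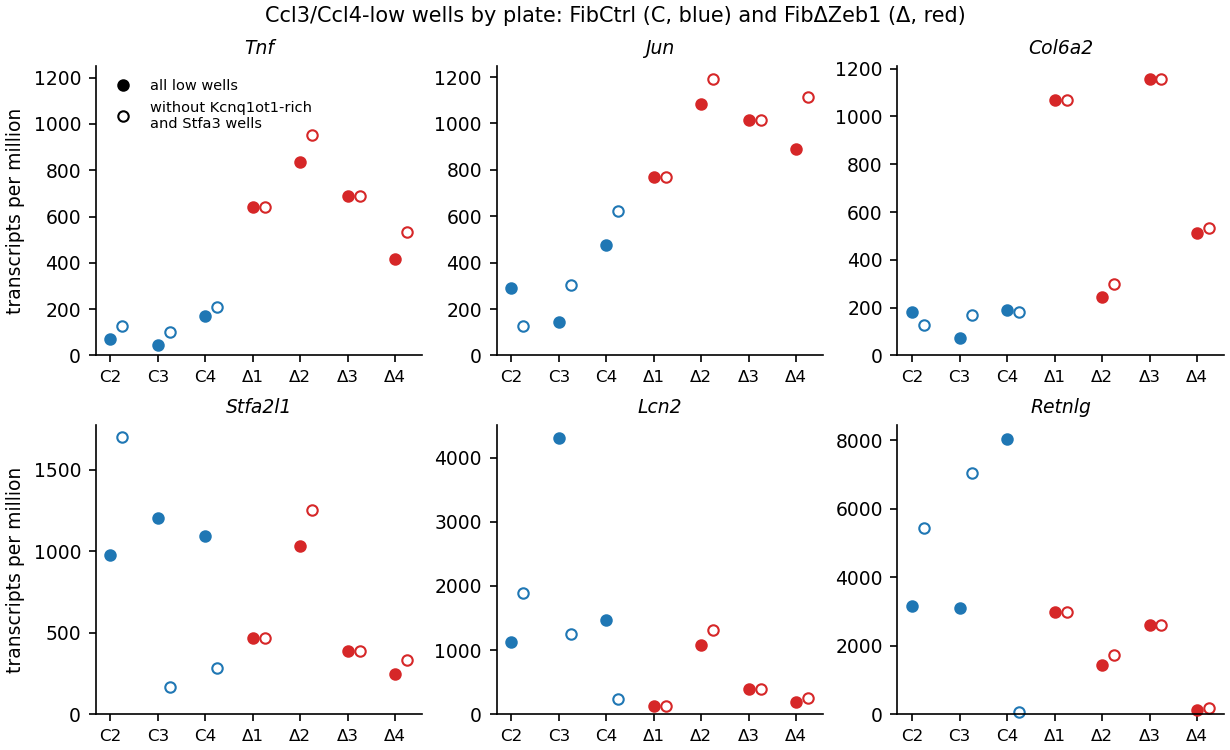
CPM in the low wells of each plate (y axis, linear from 0) for 6 genes, with FibCtrl replicates 2 to 4 in blue (C) and FibΔZeb1 replicates 1 to 4 in red (Δ). Filled points use all low wells and open points leave out the Kcnq1ot1-rich and Stfa3 wells. Tnf lies at 43.6 to 172 in FibCtrl and 417 to 837 in FibΔZeb1, while Retnlg on FibCtrl replicate 4 goes from 8040.0 to 52 without the Stfa3 wells.

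No gene of any list passed between genotypes. Rule genes were kept in the lists here, so the medians are descriptions. S100a8 and S100a9 are in the circulating neutrophil list, Il1r2 in that of interleukin 1 receptors and Cxcr2 in that of migration receptors. The median log2 difference was -4.34 over 6 stefin genes, -3.52 over 6 precursor granule genes and -1.50 over 16 circulating neutrophil genes, of which 15 were negative, against 0.01 over all genes tested. Without the Kcnq1ot1-rich and Stfa3 wells, over 7 plates, these medians were 0.51 over 2 stefin genes, -1.02 for the only granule gene tested and -0.51 over 15 circulating neutrophil genes. The early response and NF-kB list had a median of 0.18 over 18 genes, chemokines and cytokines 0.21 over 11, hypoxia and glycolysis 0.64 over 15, and migration receptors -0.63 over 17. Medians were -0.32 for 5 NADPH oxidase genes, -0.37 for 4 genes of the interleukin 1 receptors, -0.15 for 12 tumour neutrophil genes, -0.31 for 5 interferon-stimulated genes, 0.04 for 5 survival genes and 0.38 for 3 cell cycle genes. Of the other marker lists, macrophage markers had a median of 0.20 over 3 genes and the only epithelial marker tested was at -0.07.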

How the data were processed

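Transcripts of single sorted cells were counted on 8 plates of 384 wells. Per the labels and the study's methods, Single Cell Discoveries prepared CEL-Seq2 libraries and aligned reads to GRCm38. The submitters' processing notes name BWA and Cell Ranger 2.1.1, with no stated role. The authors deposited estimated counts per gene and well, obtained from unique molecular identifiers with a correction for collisions, so most but not all values are whole. No scaling to depth or batch correction is stated for them. Whether counting used strand is not given in the sources used here.

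Wells were chosen as the report describes. The members and gene lists were chosen with earlier results of these data known. Counts of a class were summed per plate, rounded, and tested with edgeR 4.0.16 (R 4.3.3, TMM, filterByExpr, quasi-likelihood, Benjamini-Hochberg at 0.05), by genotype on plates with at least 10 low wells, and between classes on plates with at least 5 wells of each and the plate as a block. The SE of an edgeR difference is its absolute value divided by the square root of the quasi-likelihood F. DESeq2 1.42.0 was an alternative. Leaving out the wells with over 10% Kcnq1ot1 and those with Stfa3 was decided after the data were seen. The share of low wells per plate was compared by an exact 2-sided permutation test. CPM are counts per 1000000 over all transcripts of the class on a plate without mitochondrial and spike-in rows, and log2 values per plate use a prior count of 2. Depth was 691 to 10396 transcripts per low well. Named genes were up to 12 called per direction and, where under 10 were called, the 6 per direction with the smallest p, plus the rule's genes and the 4 most abundant of each of 22 lists. Of 264 list genes, 256 were found under a current or older symbol. Coordinates are from GENCODE M21 (GRCm38). No doublet caller was run, since 1 cell was sorted per well. Simulated plates with known changes were used to check the edgeR script. Replicates are separate mice. Same-numbered plates of the genotypes did not deviate together and were not treated as pairs, but so few plates cannot exclude a pairing. Python 3.11.15 with numpy 2.4.6, pandas 2.3.3, scipy 1.17.1 and matplotlib 3.10.9 was used. A few genes that the rule for named genes would include are not reported here.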

Additional observations from a re-analysis of the deposited data

Results flagged for a closer look

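In 81 groups of plates checked, 6 values lay far from the other plates by Dixon's test at 95%, which chance gives in about 1 of 20 groups. In low wells these were Cxcl2 at 20172 and Nlrp3 at 1329.9 CPM on FibΔZeb1 replicate 2, and Stfa2 at 4625 on FibCtrl replicate 4, where 2 wells held Stfa3. In the high wells that served for comparison they were Retnlg at 8434 on FibCtrl replicate 2, Ccl4 at 13790 on FibCtrl replicate 4 and Anxa1 at 1341 on FibΔZeb1 replicate 2. Each was the highest of 6 plates.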

How the results depend on the processing

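Low against high wells gave 6 calls, and 19 (13 higher and 6 lower) with no filter on low counts, 21 (6 and 15) with DESeq2, 18 (4 and 14) with DESeq2 without Kcnq1ot1-rich wells, 3 with wells thinned to 500 transcripts and 1 without the plate block. Leaving out each plate gave 0 (FibΔZeb1 replicate 3) to 9 calls, and 10 wells of each class per plate gave 5 on 3 plates. The genotype comparison gave 0 calls, and 5 with a neutrophil sum of at least 80 per 10000, 6 without the Kcnq1ot1-rich wells (2 plates against 2), 1 with DESeq2 and 16 with no filter, of which 5, 6, 1 and 12 were lower in FibΔZeb1. The call of DESeq2 was Stfa2 (adjusted p = 0.0134). Leaving out each plate gave 0 calls in every case. The difference in share of low wells ranged from -19.2 to 2.66 points without 1 plate, and turned only without FibCtrl replicate 3 (2.66). The span difference ranged from 1.33 to 3.97 without 1 plate, the lone FibΔZeb1 plate having no spread of its own, and turned to -0.23 without the Kcnq1ot1-rich and Stfa3 wells. Same-numbered plates correlated at 0.12, -0.37 and -0.30. With the replicate number as a block the share difference was -6.78 points (exact permutation p = 1, smallest possible 0.25), the span difference 2.79, and 0 of 990 genes passed. Over the named genes and all alternatives, 1848 of 2128 values kept their sign and call, 25 lost and 58 gained a call, and 197 had the other sign, of which 0 were called in either fit. At 1833 transcripts per median well, low-abundance genes were often not detectable.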
